A study of Mus musculus with 6 samples.

Results

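The genes of presynaptic vesicle release were followed in the amygdala of mice that lack IP3K-A, the A form of the inositol trisphosphate 3-kinases. The set was a list of 51 genes for calcium sensors, vesicle proteins, SNARE proteins and their regulators, active zone and priming proteins, endocytic proteins and neurexins. A listed gene was measured where a probe set of the array is annotated with its symbol alone, and the brightest such probe set stood for the gene. This gave 50 of the 51 genes, out of 22180 genes measured in all. Doc2a, a calcium sensor gene, was left out because its 1 probe set is also annotated with Ino80e.

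Male IP3K-A KO mice and WT littermates on a C57BL/6N background, 10 to 15 weeks old, received no treatment that the labels name. Amygdala tissue was cut from brain slices, and RNA of several mice was combined into each of 3 WT and 3 KO pools. Each pool was read on a GeneChip Mouse Gene 2.0 ST array, and the values are log2 intensities, in which a difference of 1 is a doubling. How the Itpka gene was disrupted, and whether a given mouse entered only 1 pool, is not given in the sources used here.

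A nerve terminal releases transmitter when calcium enters near docked vesicles. Active zone proteins hold vesicles beside calcium channels, priming proteins ready them, and SNARE proteins of the vesicle and the plasma membrane zip together to fuse them. Synaptotagmins sense the calcium, complexins both restrain and promote fusion, and the ATPase NSF with its SNAP adaptors takes the spent SNARE complexes apart. Endocytic proteins then recover the membrane. IP3K-A converts inositol trisphosphate, which opens calcium channels of the endoplasmic reticulum, into inositol tetrakisphosphate, and its protein is known mainly from dendritic spines, on the receiving side of the synapse.

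The targeted gene and the tissue were checked first. Itpka lay at 8.85, 8.90 and 8.96 in the WT pools and at 6.76, 6.95 and 6.96 in the KO pools, a log2 change of −2.02 (SE 0.08, adjusted p = 2.61e-04 from limma). Whether its probes lie in the disrupted part of the gene is not given in the sources used here. Array medians lay between 6.493 and 6.519. All 12 markers of neurons were measured, and their list mean was 10.38 to 10.42 in WT and 10.34 to 10.41 in KO, with 5 higher and 7 lower in KO. All 10 markers of central amygdala neurons were measured, with a list mean of 8.43 to 8.63 in WT and 8.46 to 8.52 in KO. Of these, 4 lay higher and 6 lower. Of 10 measured markers of excitatory cortical and basolateral amygdala neurons, 2 lay higher and 8 lower. Their list mean was 9.35 to 9.42 in WT and 9.28 to 9.48 in KO. The mean over the presynaptic genes was 10.28 to 10.33 in the 6 pools. Other cell type markers set some pools apart. The mean of 7 measured choroid plexus markers was 8.50 in KO 1 and 6.87 to 7.21 in the other 5 pools. The mean of 17 measured markers of striatal projection neurons, the main cells of the tissue beside the amygdala, was 9.42 in WT 1, 9.48 in WT 2 and 9.33 in KO 3, but 9.07 in WT 3, 8.92 in KO 1 and 8.97 in KO 2. All 17 had a lower mean in KO, with a median of −0.22. The mean of 10 oligodendrocyte markers was 8.69 in KO 2, against 9.02 in KO 1, 9.12 in KO 3 and up to 9.16 in WT. All 10 measured markers of GABAergic neurons had a lower mean in KO, and their list mean was 9.14 to 9.20 in WT and 8.99 to 9.15 in KO. The striatal, choroid plexus and oligodendrocyte means were used as covariates, and the part of the GABAergic shift in the presynaptic values was not tested. The choroid plexus mean stood apart in KO 1 alone, so that covariate is close to leaving KO 1 out. The striatal mean differed between KO and WT by −0.25. As a covariate it overlaps with genotype, so a smaller change beside it has no single reading.

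No presynaptic gene differed between KO and WT past the adjusted test, and the differences in the means were small. Of the 50 genes, 29 lay higher and 21 lower in KO. Their median log2 change was 0.02. The changes ran from −0.19 for Cplx1 to 0.19 for Napb, or from 1.14-fold lower to 1.14-fold higher. The smallest adjusted p was 0.729 from limma, for Napb, against a call rate of 0.00902% over all genes. At an unadjusted p under 0.05 limma gave 1 gene, Napb, where 6.52% of all genes and 4.63% of genes as bright as these passed. The test that the methods name gave 3 (Syt1, Snap25 and Napb), where 6.38% of all genes and 7.83% of genes as bright passed, and 0 after adjustment. The methods call a gene changed when its fold change exceeds 1.2 at a p under 0.1. By this rule 0 of the 50 genes passed with limma or with the test they name, against 3.01% and 1.82% of all genes. Genes as bright as these are the 10289 whose mean level was at or above that of the dimmest presynaptic gene, Cplx3, at 7.22. The mean over the presynaptic genes was 10.28 to 10.33 in the pools, so this set shares a floor and is not matched in level.

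The estimates were also narrow enough to bound the change. The 95% interval from limma lay wholly within 1.2-fold in either direction for 42 of the 50 genes (84.0%). This held for 69.9% of the genes as bright and for 49.7% of all genes. The interval passed 1.2-fold for Unc13b, Unc13c, Cplx1, Cplx2, Cadps2, Napb, Stx1a and Syt2. The median SE was 0.07 for the presynaptic genes and 0.07 for genes as bright, so the narrow intervals were shared with other bright genes. Of the presynaptic genes, 46 (92.0%) had a log2 change under 0.1 in size, against 75.9% of the genes as bright. Since the sets were not matched in level, these shares do not show that the presynaptic genes were unusually steady. In bulk tissue, fewer cells of a type and less RNA per cell cannot be told apart. With 3 pools per genotype, the smallest p of a two-sided exact permutation test is 0.1.

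**Figure D1:**
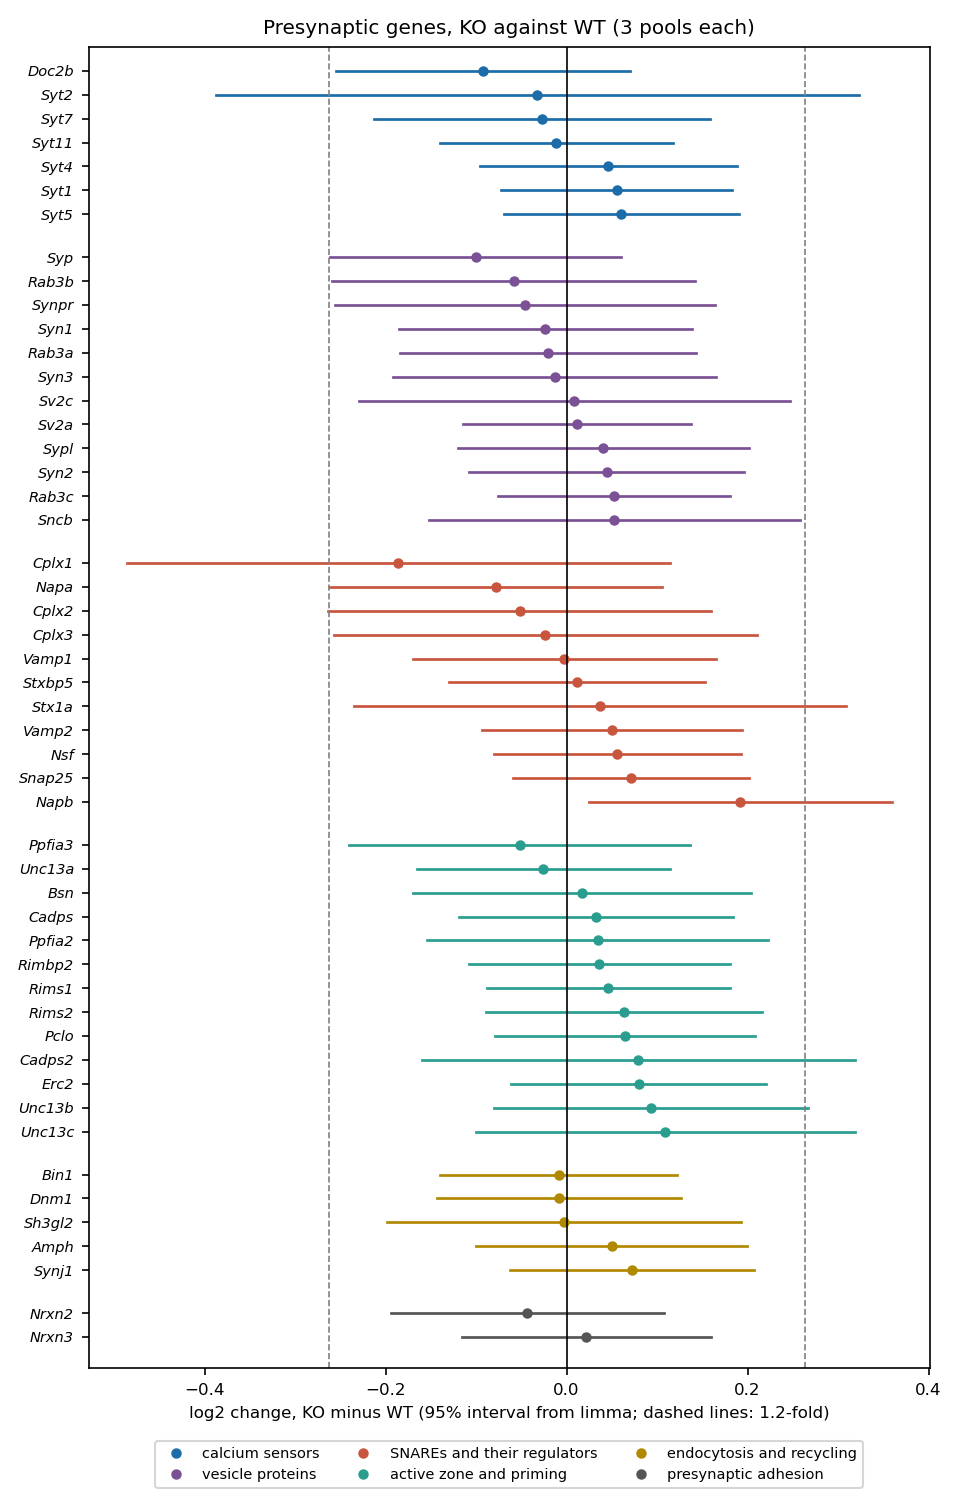
Log2 change, KO minus WT, of the 50 presynaptic genes by role, with the 95% interval from limma (3 pools per group) and dashed lines at 1.2-fold. All intervals but that of Napb span 0, 42 stay between the dashed lines, and those of Cplx1 and Syt2 are the widest.

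The split between higher and lower genes moved with the scaling of the arrays, with array weights and with KO 1 left out. With arrays centered on their medians 33 of 50 (66.0%) lay higher in KO, and with quantile normalization repeated 24 of 50 (48.0%) did. Under these scalings genes as bright moved alike, at 57.0% higher as deposited, 61.8% after centering and 50.5% after repeated quantile normalization. Without KO 1, or with array weights, 34 of the 50 (68.0%) lay higher. With the choroid plexus marker mean as a covariate, close to leaving KO 1 out, 35 (70.0%) did. Genes as bright stayed near their deposited share there, at 56.8%, 56.1% and 56.4%. The median change of the presynaptic genes was −0.01 under repeated quantile normalization, so the sign of the median was not stable. The median over all 22180 genes was −0.0002.

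**Figure D2:**
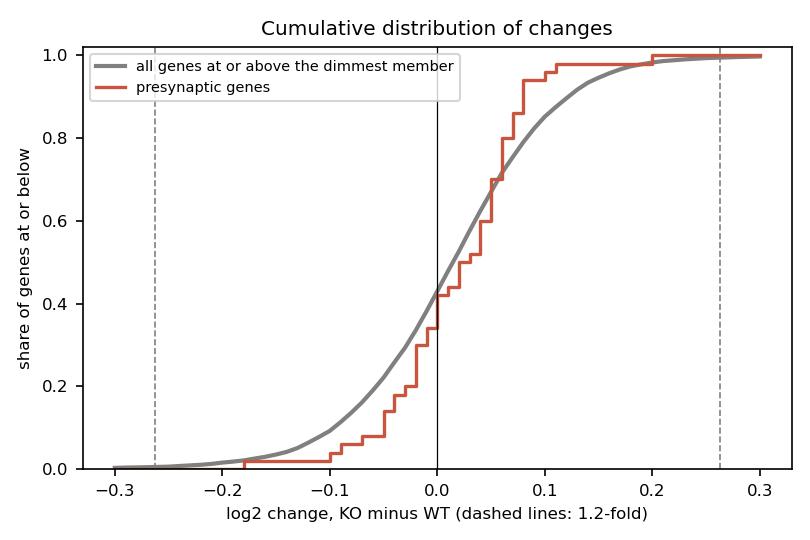
Share of genes at or below each log2 change, KO minus WT, with dashed lines at 1.2-fold. Red steps are the 50 presynaptic genes. The gray line is the 10289 genes as bright, at or above the dimmest of the 50 and not matched in level. The red steps climb more steeply near 0, since 92.0% of the presynaptic genes and 75.9% of the genes as bright lie within 0.1 of it.

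The pools did not overlap between genotypes in 6 presynaptic genes, all higher in KO. All genes had such a separation in 13.7% of cases, and 7.54% were separated with KO higher. Genes as bright had it in 16.6% and 11.0%, so the 6 of 50 were near the background. The 6 were Syt1, Syt5, Rab3c, Snap25, Napb and Synj1, and apart from Napb their differences were at most 0.07 on the log2 scale.

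The SNARE proteins and their regulators held both the highest and the lowest change. Of 11 genes, 6 lay higher and 5 lower in KO (7 and 4 after centering, 5 and 6 after repeated quantile normalization), and the median was 0.01. The split was 9 and 2 with the striatal marker mean as a covariate. It was 8 and 3 with the choroid plexus marker mean or with array weights. Napb encodes beta-SNAP, an adaptor of the brain that brings NSF to spent SNARE complexes. Napb lay at 10.85, 10.76 and 10.89 in WT (10.84 ± 0.07, SD, n = 3) and at 11.13, 10.99 and 10.96 in KO (11.03 ± 0.09, SD, n = 3). Every KO pool lay above every WT pool, and KO 1 stood highest. The log2 change was 0.19 (SE 0.07, 95% interval 0.03 to 0.36, adjusted p = 0.729 from limma). It was 0.14 without KO 1 and 0.14 to 0.23 over all pools left out in turn, and it no longer had an unadjusted limma p under 0.05 without WT 1, WT 2 or KO 1. With the striatal or the choroid plexus marker mean as a covariate it was 0.12 or 0.13, again without an unadjusted limma p under 0.05. Napb lies on chromosome 2, as Itpka does, 263 measured genes distal of it.

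Cplx1 encodes complexin 1, which clamps SNARE complexes until calcium arrives and then favors fusion. Cplx1 lay at 10.73, 10.67 and 10.64 in WT (10.68 ± 0.05, SD, n = 3) and at 10.18, 10.69 and 10.61 in KO (10.50 ± 0.27, SD, n = 3). KO 1 alone stood low, while KO 2 lay within the WT range and KO 3 just under it. The log2 change was −0.19 (SE 0.13, 95% interval −0.49 to 0.11, adjusted p = 0.794 from limma). Without KO 1, the pool with the high choroid plexus markers, it was −0.03. With the choroid plexus marker mean as a covariate, an alternative chosen after seeing the data, it was −8.3e-05. As that mean was high in KO 1 alone, this is close to the same check and not a second result. Without KO 2 it was −0.28, and Cplx1 was then the 1 presynaptic gene past the thresholds of the methods.

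The other members of this group, named here after their values were seen, were closer together. Snap25, a plasma membrane SNARE, lay at 13.13, 13.05 and 13.12 in WT and at 13.16, 13.18 and 13.18 in KO. The KO pools lay above all WT pools, but the means differed by only 0.07. Snap25 is also on chromosome 2, 201 measured genes distal of Itpka. Stx1a, its partner syntaxin, lay at 9.41, 9.80 and 9.71 in WT and at 9.58, 9.83 and 9.62 in KO. Its pools overlapped and spread over 0.42, much wider than its difference of 0.04. Vamp2, the SNARE of the vesicle, differed by 0.05, Nsf by 0.06, and Napa, which encodes the broadly expressed alpha-SNAP, by −0.08. Vamp1 and Stxbp5, whose product tomosyn competes with the vesicle SNARE, differed by −0.002 and 0.01. The complexin genes Cplx2 and Cplx3 differed by −0.05 and −0.02, and Cplx2, like Cplx1, was lowest in KO 1 (9.63, against 9.79 to 9.96 in the other pools).

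**Figure D3:**
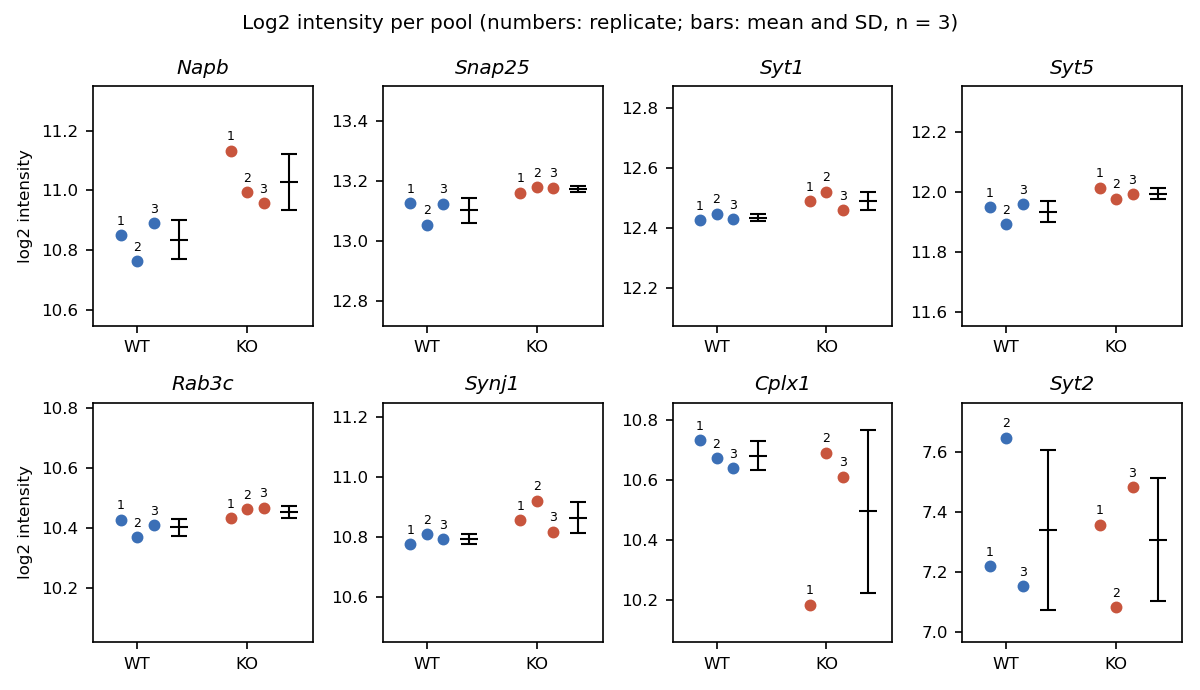
Log2 intensity of 8 presynaptic genes in each WT (blue) and KO (red) pool, numbered by replicate, with the mean and SD (n = 3) beside the points. Every panel spans 0.8 on the log2 scale. The first 6 panels hold the genes whose pools did not overlap, a separation found in 16.6% of genes as bright, 11.0% with KO higher. In these panels the KO points lie above the WT points, by 0.19 in the mean for Napb and at most 0.07 for the others. Cplx1 has 1 low KO pool and Syt2 overlaps throughout.

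Promoters of the genes with the 2 largest changes, Napb and Cplx1, and of Syn1, which holds the 2 longer motifs, are printed here to show what lies before their starts. They are the 250 bases before the gene start in RefSeq's GRCm38.p6 annotation, on the minus strand in all 3 cases, from chr2:148732421-148732670 for Napb, chr5:108550028-108550277 for Cplx1 and chrX:20920919-20921168 for Syn1. Capitals mark a motif found on either strand: GGGCGG, the GC box (read as CCGCCC on the other strand), TGACGTCA, the cAMP response element, and TTCAGCACC, the left arm of the RE1 element that the repressor REST binds.
Napb: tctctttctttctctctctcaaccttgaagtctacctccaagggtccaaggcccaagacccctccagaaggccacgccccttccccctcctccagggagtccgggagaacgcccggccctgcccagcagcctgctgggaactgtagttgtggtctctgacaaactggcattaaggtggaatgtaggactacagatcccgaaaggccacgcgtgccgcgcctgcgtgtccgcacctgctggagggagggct
Cplx1: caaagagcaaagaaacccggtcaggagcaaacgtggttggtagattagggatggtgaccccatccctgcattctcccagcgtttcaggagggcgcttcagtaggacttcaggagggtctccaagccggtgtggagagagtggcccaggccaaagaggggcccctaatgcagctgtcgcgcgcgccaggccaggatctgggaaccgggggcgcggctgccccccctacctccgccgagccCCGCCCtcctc
Syn1: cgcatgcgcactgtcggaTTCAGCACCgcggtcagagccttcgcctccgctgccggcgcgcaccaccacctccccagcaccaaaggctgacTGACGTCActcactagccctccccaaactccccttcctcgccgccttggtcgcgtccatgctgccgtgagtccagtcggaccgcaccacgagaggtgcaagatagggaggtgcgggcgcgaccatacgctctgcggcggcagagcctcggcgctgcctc
The Napb promoter held none of the motifs searched at a GC content of 61.2%, the Cplx1 promoter 1 GC box at 64.8%, and the Syn1 promoter 1 cAMP response element and 1 RE1 arm at 68.0%. Of the 50 genes, 40 had entries in the promoter table, 49 in all. A GC box was in 61.2% of the 49, against 32.7% of all 32851 promoters of this length, and the median GC content was 62.0% against 52.4%. TATAAA was in 1 of the 49 (2.04%, Rab3b), against 12.4%. The E-box CACGTG was in 10.2% against 6.02%. The cAMP response element was in 2 (Sh3gl2 and Syn1, 4.08%), against 1.55%, and the RE1 arm in 2 (Ppfia3 and Syn1, 4.08%), against 0.301%. Both strands were searched, and no test was made. A match is a description of these letters only.

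The calcium sensors went both ways. Of 7 genes 3 lay higher and 4 lower in KO (2 and 5 after repeated quantile normalization), with a median of −0.01 and a range of −0.09 to 0.06. The split was 5 and 2 with array weights or with the striatal marker mean as a covariate. Doc2b, a high-affinity sensor of spontaneous release, lay at 9.64, 9.56 and 9.55 in WT and at 9.58, 9.50 and 9.39 in KO. KO 3 stood lowest and the groups overlapped, at a log2 change of −0.09 (SE 0.07, adjusted p = 0.812 from limma) that was −0.04 without KO 3. Syt5, a synaptotagmin of vesicles, lay at 11.95, 11.89 and 11.96 in WT and at 12.01, 11.98 and 11.99 in KO. These pools did not overlap, at a log2 change of 0.06 (SE 0.06, adjusted p = 0.832 from limma). Syt1, the sensor of fast synchronous release in forebrain neurons, was named after its values were seen. It lay at 12.43, 12.45 and 12.43 in WT and at 12.49, 12.52 and 12.46 in KO. The difference of 0.06 was small, but it was larger than the SD of either group (0.01 in WT and 0.03 in KO, n = 3).

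Syt2, the fast sensor known from the hindbrain and from some inhibitory neurons, varied the most of all 50 genes. It lay at 7.22, 7.65 and 7.15 in WT and at 7.36, 7.08 and 7.48 in KO, a range of 0.56 with a difference of −0.03 in the means. WT 2 and KO 3 were high and WT 3 and KO 2 low, so the spread lay within genotypes. Syt7, a sensor of slow and asynchronous release, differed by −0.03, and Syt11 by −0.01. Syt4, an atypical synaptotagmin, differed by 0.05 on its brightest probe set, and its other 2 probe sets lay below the array medians.

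The vesicle proteins were balanced between the genotypes in the deposited values, but not without KO 1. Of 12 genes, 6 lay higher and 6 lower in KO (4 and 8 after repeated quantile normalization), with a median of −0.002, and all 12 intervals stayed within 1.2-fold. The split was 9 and 3 without KO 1. It was 10 and 2 with the choroid plexus marker mean as a covariate, which is close to the same check. Syp encodes synaptophysin, an abundant membrane protein of vesicles that binds the vesicle SNARE. Syp lay at 11.73, 11.80 and 11.87 in WT and at 11.62, 11.78 and 11.69 in KO, with overlap and with KO 1 lowest. Its log2 change was −0.10 (SE 0.07, adjusted p = 0.793 from limma), the lowest of this group, and −0.06 without KO 1. Rab3c, a small GTPase of vesicles that binds RIM proteins, lay at 10.43, 10.37 and 10.41 in WT and at 10.43, 10.46 and 10.47 in KO. The pools did not overlap, by a narrow margin, at a log2 change of 0.05 (SE 0.06, adjusted p = 0.855 from limma). These values are of its brightest probe set, and its other, dimmer probe set differed by 0.01.

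The synapsins, which tether vesicles in reserve, showed no common direction. Syn1 differed by −0.02, Syn2 by 0.04 and Syn3 by −0.01, values named here after they were seen. Syn1 lay at 11.47, 11.45 and 11.54 in WT and at 11.36, 11.55 and 11.48 in KO, with the lowest and the highest pool both KO. Sv2a, the vesicle glycoprotein bound by the drug levetiracetam, was the steadiest of all 50 genes, with a range of 0.04 over the 6 pools. Its relative Sv2c, known as enriched in the basal ganglia, ranged over 0.36, from 9.87 in KO 2 to 10.23 in KO 3. The difference between its group means was 0.01. Rab3a, the most studied vesicle GTPase, and Rab3b differed by −0.02 and −0.06, and both were lowest in KO 1. Sncb, the beta-synuclein gene, differed by 0.05, Sypl by 0.04 and Synpr, a synaptophysin relative, by −0.05.

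The active zone and priming genes had the most one-sided split of the 6 role groups in the deposited values. Of 13 genes 11 lay higher in KO and 2 lower, and the changes ran from −0.05 to 0.11 around a median of 0.05. The split was 11 and 2 after centering, and 10 and 3 after repeated quantile normalization or with the mean of a gene's probe sets. It was 9 and 4 with the choroid plexus marker mean and 7 and 6 with the striatal marker mean as a covariate. None had a p under 0.05 from limma or by the test of the methods, and none had separated pools. The mean over the 13 genes was 9.77, 9.75 and 9.81 in WT and 9.86, 9.84 and 9.76 in KO, so KO 3 lay within the WT range.

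Erc2 encodes the scaffold CAST of the active zone. Erc2 lay at 9.89, 9.78 and 9.84 in WT and at 9.93, 9.96 and 9.87 in KO, a log2 change of 0.08 (SE 0.06, adjusted p = 0.812 from limma). Only KO 3 fell within the WT range, and the change was 0.05 without WT 2. Unc13b encodes Munc13-2, a priming factor that opens syntaxin for SNARE assembly. Unc13b lay at 8.75, 8.60 and 8.82 in WT and at 8.86, 8.83 and 8.76 in KO, a log2 change of 0.09 (SE 0.07, adjusted p = 0.817 from limma) that was 0.03 to 0.14 with each pool left out in turn. WT 2 stood lowest, and with the striatal marker mean as a covariate the change was 0.01. Unc13c, its relative known from the cerebellum, lay at 9.38, 9.35 and 9.41 in WT and at 9.67, 9.34 and 9.46 in KO. It had the highest change of the group, 0.11, through KO 1, and was named for that after its values were seen. Unc13a, the main priming factor of forebrain synapses, differed by −0.03 and the liprin gene Ppfia3 by −0.05. Of the scaffolds, Rims1 differed by 0.05, Rims2 by 0.06, Pclo by 0.06 and Bsn by 0.02 on its brightest probe set and −0.10 on its other. Rimbp2, which links RIM proteins to calcium channels, differed by 0.04, and the liprin gene Ppfia2 by 0.03. Cadps and Cadps2, priming factors of dense-core vesicles, differed by 0.03 and 0.08.

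Among endocytic genes, 2 of 5 lay higher and 3 lower in KO, and all 5 lay higher after centering. Their range was −0.01 to 0.07 and all intervals stayed within 1.2-fold. Synj1 encodes synaptojanin 1, a phosphatase that helps shed the clathrin coat. Synj1 lay at 10.78, 10.81 and 10.79 in WT and at 10.86, 10.92 and 10.82 in KO, without overlap. The log2 change was 0.07 (SE 0.06, adjusted p = 0.819 from limma), and 0.04 without KO 2. Amph encodes amphiphysin, which brings dynamin to the neck of the budding vesicle. Amph lay at 11.18, 11.23 and 11.25 in WT and at 11.33, 11.30 and 11.19 in KO, with KO 3 within the WT range. Its log2 change was 0.05 (SE 0.06, adjusted p = 0.882 from limma), which was 0.02 without KO 1 and −0.01 with the striatal marker mean as a covariate. Dnm1 and Bin1 both differed by −0.01. Sh3gl2, the endophilin A1 gene, differed by −0.003 on its brightest probe set and by 0.06 and 0.16 on its other 2. Dnm1, the dynamin gene of neurons, is the remaining member on chromosome 2, 808 measured genes proximal of Itpka.

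Of the neurexins, presynaptic adhesion proteins that bind neuroligins across the cleft, Nrxn2 lay at 10.03, 10.03 and 10.13 in WT and at 9.98, 10.09 and 9.99 in KO. The log2 change was −0.04 (SE 0.06, adjusted p = 0.903 from limma), and it ran from −0.08 without KO 2 to −0.01 without WT 3. Nrxn3 lay at 11.53, 11.45 and 11.54 in WT and at 11.50, 11.52 and 11.57 in KO. The log2 change was 0.02 (SE 0.06, adjusted p = 0.947 from limma). Both genes overlapped between genotypes, and the sign of Nrxn3 turned without WT 2 (−0.01).

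The lowest values of the presynaptic genes lay most often in 1 pool of each genotype, in counts that were not made over all genes. WT 2 held the lowest value of 16 genes and KO 1 that of another 16, together 32 of the 50. Of the 16 lowest in WT 2, 8 were highest in KO 1 and 5 in KO 2, and their median gene span was 223 kb. The 16 lowest in KO 1 had a median span of 45.9 kb, and 4 of these were highest in WT 2. KO 2 held the highest value of 17 genes and KO 1 that of 11.

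**Figure D4:**
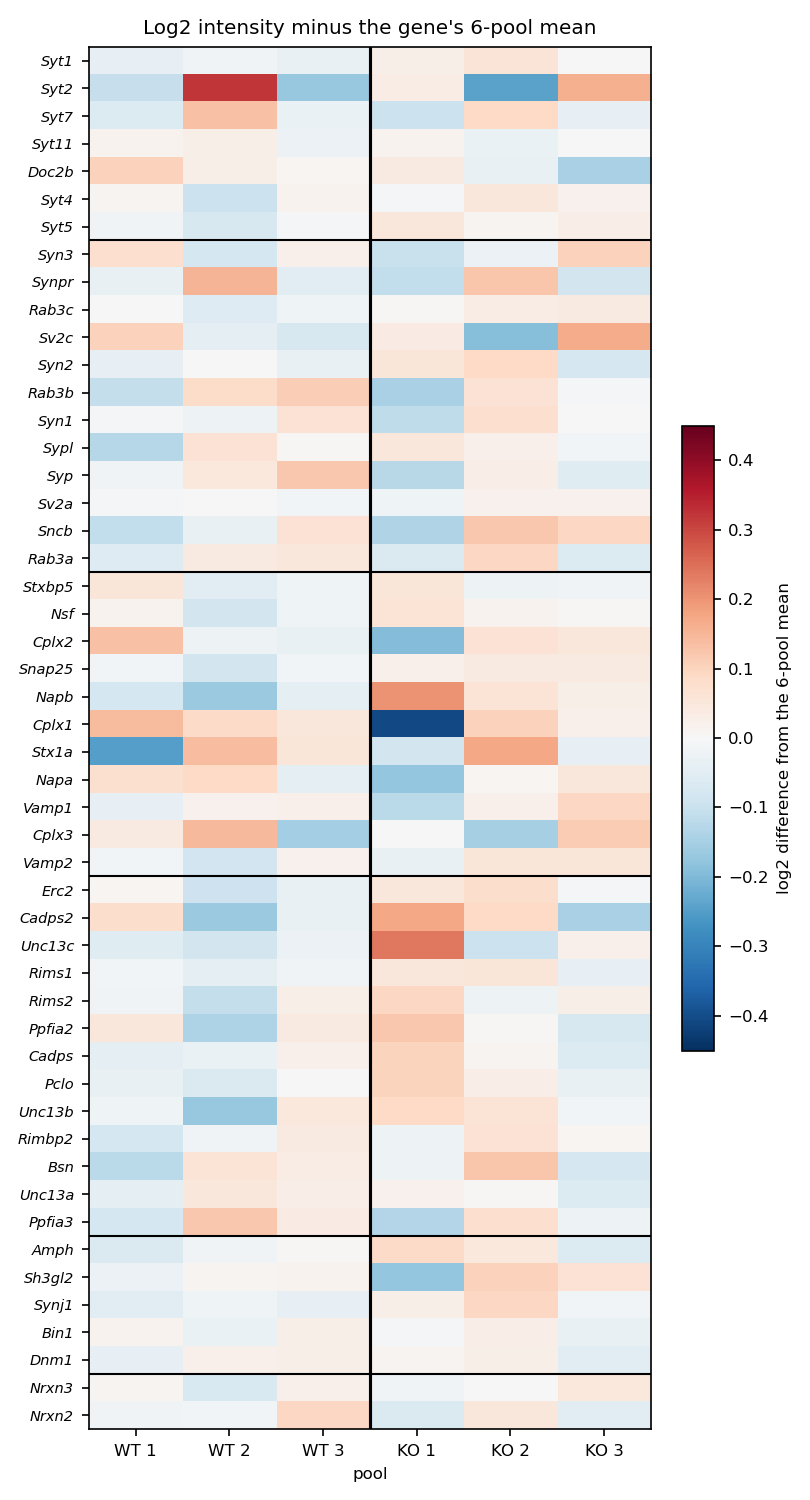
Log2 intensity of each of the 50 genes minus its mean over the 6 pools, with rows grouped by role and ordered from the longest to the shortest gene within a role. The active zone rows are mostly red in KO 1 and blue in WT 2, Cplx1 is the darkest blue cell in KO 1, and Syt2 changes color within both genotypes.

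The span of the gene went with the change, a relation looked for after the values were seen and given as a description. Spans are the distance from start to end of the gene in the RefSeq GRCm38.p6 annotation. Of the 25 genes longer than the median of 79.8 kb, 19 lay higher and 6 lower in KO (76.0% higher), at a median of 0.04. Of the 25 shorter genes 10 lay higher and 15 lower (40.0% higher), with a median of −0.01. All genes as bright showed the same order, with 69.2% of the 2197 longer ones and 53.6% of the 8051 shorter ones higher in KO. Their medians were 0.03 and 0.01. Spearman's rank correlation of span and change was 0.367 across the 50 genes and 0.237 across 10248 genes as bright with a known span. Genes share the same arrays and are not independent, so these carry no p.

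The 11 active zone genes that lay higher in KO were the 11 longer ones of that group, and the 2 that lay lower, Unc13a and Ppfia3, were the 2 shorter ones. This held on the brightest probe sets, and Bsn, 1 of the 11, differed by 0.02 on its brightest and by −0.10 on its other. With the mean of a gene's probe sets the group split was 10 and 3. In the other groups 8 of 14 longer and 10 of 23 shorter genes lay higher. By pool, the median deviation of the 25 longer genes from their 6-pool means was −0.02, −0.04 and −0.02 in WT and 0.05, 0.05 and −0.01 in KO, so KO 3 lay on the side of WT. For the 2197 longer genes as bright it was −0.002, −0.04 and −0.005 in WT and 0.04, 0.02 and 0.001 in KO. WT 2 was thus lowest and KO 1 highest there too. The number of longer genes higher in KO was 15 after repeated quantile normalization and 18 with either the striatal or the choroid plexus marker mean as a covariate. That of shorter genes was 17 with the choroid plexus mean and 16 without KO 1, so the contrast of longer and shorter genes was smaller without KO 1. RNA quality per pool was not analysed here.

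**Figure D5:**
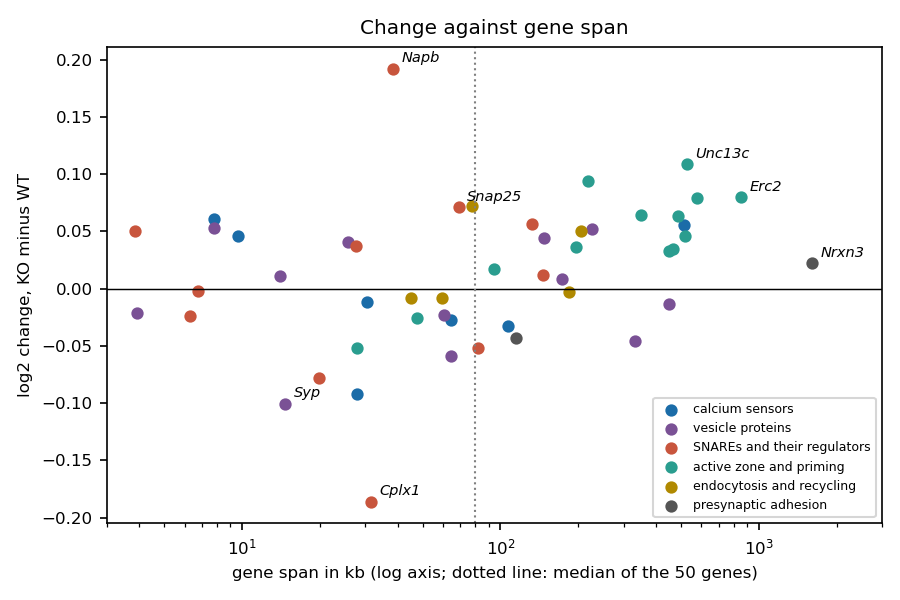
Log2 change, KO minus WT, of the 50 genes against gene span in kb on a log axis, colored by role, with a dotted line at the median span of 79.8 kb. To the right of the line 19 of 25 points lie above 0, and to the left 10 of 25 do, with Napb and Cplx1 as the 2 extremes.

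The same was asked of other genes of the presynaptic terminal, a list of 68 genes that holds the vesicular transmitter transporters, further synaptotagmins, syntaxins and adaptor proteins. Of these, 64 were analysed here. In KO 33 lay higher and 31 lower, their median was 0.01, and 0 passed the adjusted test or the thresholds of the methods. At an unadjusted p under 0.05, 1 of the 64 passed by limma and 3 by the test of the methods, against 6.52% and 6.38% of all genes. The 1 gene was Stxbp6, which encodes amisyn, a SNARE-binding inhibitor of fusion. Stxbp6 lay at 9.25, 9.33 and 9.28 in WT and at 9.43, 9.46 and 9.41 in KO, with all KO pools above all WT pools. The log2 change was 0.15 (SE 0.06, 95% interval 0.01 to 0.28, adjusted p = 0.738 from limma), and it stayed between 0.13 and 0.17 with each pool left out in turn. It no longer had an unadjusted limma p under 0.05 when any pool but WT 2 was left out, after repeated quantile normalization, over all probe sets, with the replicate block or with any of the 3 marker covariates. Pools did not overlap in 13 of the 64, 8 higher and 5 lower in KO, where all genes had 13.7%, with 7.54% higher and 6.16% lower. Higher among the 13 were, for example, Sv2b, another SV2 glycoprotein, and Slc17a8, a vesicular glutamate transporter. Lower were, for example, Slc18a2, the vesicular transporter of monoamines, and Cacna1b, the pore of N-type calcium channels.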

How the data were processed

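The 6 arrays (GeneChip Mouse Gene 2.0 ST) hold 3 WT and 3 KO amygdala pools. The deposited values are log2 intensities that the authors made with GCOS and RMA, as the submitters' processing notes name them, without versions. RMA gives all arrays a like distribution, so a shift of all genes together would not be seen. KO was compared with WT by limma 3.58.1 (lmFit, eBayes) in R 4.3.3, without covariates, on the 23521 probe sets annotated with 1 gene symbol, with Benjamini-Hochberg adjustment over all of these. Probe sets with several symbols (1820) or not listed (16004) were left out, and no filter on low values was used. The number of arrays limits the precision.

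Test values are given for Itpka, for presynaptic genes with an unadjusted limma p under 0.05, for the 2 genes with the smallest limma p in each of the 6 role groups, and for other presynaptic genes with an unadjusted limma p under 0.05. All other genes were named after seeing their values. The members and lists were chosen with earlier results of these data known, so no list was tested. The platform annotation names no assembly, so distances on chromosome 2 are counted in genes. Gene spans and promoters came from RefSeq tables of GRCm38.p6, which matched 50 and 40 of the genes. The fit was tested on simulated data. Alternatives were the methods' test, trend and robust eBayes, other scalings, other probe set choices, a replicate block, array weights, marker means as covariates and each pool left out. The sources do not say that pools of a genotype held separate mice, so p-values measure the spread between these pools. Tables and figures were made with pandas 2.3.3 and matplotlib 3.10.9 in Python 3.11.15.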

Additional observations from a re-analysis of the deposited data

How the results depend on the processing

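KO was compared with WT under 18 alternatives. The choroid plexus marker mean as a covariate was chosen after seeing the data. For the 13 named presynaptic genes, 0 of 234 values had an adjusted p under 0.05. Several alternatives leave the log2 change as it was, and of the 159 values that did move 157 kept their sign, some near 0 (Cplx1 at −8.3e-05 and Amph at 0.0039 with the choroid plexus covariate). The other 2 turned, that of Amph with the striatal marker mean as a covariate (−0.00697) and that of Nrxn3 without WT 2 (−0.0066, within a range of −0.0066 to 0.0393 with a pool left out). The probe sets past the adjusted test, 2 as deposited, were 0 with the test of the methods (where Itpka had an adjusted p of 0.242), 10 with an intensity trend and robust eBayes, 1 among probe sets above the median level, 50 over all probe sets, 7 with array weights, 1 with each of the striatal, choroid plexus and oligodendrocyte covariates, and 1 to 6 with a pool left out. None was a presynaptic gene. Presynaptic genes at an unadjusted p under 0.05, 1 by limma, were 3 with the test of the methods, 0 with each of the 3 covariates, and 0 to 1 with a pool left out. Genes past the thresholds of the methods were 0 to 1 with a pool left out, the 1 being Cplx1 without KO 2. The median change of the presynaptic genes was 0.02 as deposited, −0.0059 after repeated quantile normalization, and 0.01 to 0.04 with a pool left out.

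With the replicate number as a block, 1 probe set passed the adjusted test and Napb alone had an unadjusted limma p under 0.05. Same-numbered pools had correlations of −0.03, 0.09 and −0.01, so the numbers were not taken to pair the pools. With 3 pools per genotype, changes of about 1.2-fold or less could not be resolved in genes such as Syt2, Cplx1 and Stx1a. Changes past 1.2-fold were not excluded in these genes either. Their intervals from limma ran from −0.39 to 0.32 for Syt2, −0.49 to 0.11 for Cplx1 and −0.23 to 0.31 for Stx1a.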
